A study of Mus musculus with 6 samples.

Results

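Sprr1a, Gap43, Basp1, Gadd45a, Gadd45g, Ecel1, Tubb6 and Stmn4 are genes of the growth cone and of the neuronal response to axon injury. They were taken by symbol from a list of 8, and all 8 were found among the 32371 genes of the count table. RNA-Seq was made from adult C57BL/6J mice whose eyes were injected with AAV2-GFP (control) or AAV2-Ezh2-Y726D, with 3 libraries in each group. Both groups received an optic nerve crush 2 weeks after injection and were sorted 3 days after the crush, so that every library comes from injured retinas and no uninjured library was compared. Ezh2-Y726D is a mutant of the histone methyltransferase Ezh2 that lacks methyltransferase activity. It is delivered by a virus to the eye, and the libraries hold the sorted cells as a whole, transduced or not. Cells were enriched for CD90.2, the product of Thy1. Neither the labels nor the methods used here say how many mice went into a library, so P values measure the spread between libraries, which may be technical.

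Mature CNS neurons regrow axons poorly, and retinal ganglion cells (RGCs) are among the best studied examples. After axotomy, neurons with regenerative capacity induce a set of regeneration-associated genes. Some of these encode proteins of the growth cone, the motile tip of a growing axon. Gap43 and Basp1 encode acylated membrane phosphoproteins that act on actin at the growth cone. Stmn4 encodes a stathmin, a family that binds tubulin and regulates microtubule dynamics, and Tubb6 a beta-tubulin. Sprr1a encodes a small proline-rich protein of the epithelial cornified envelope that axotomized neurons also express. Ecel1 encodes a neuronal protease of the endothelin-converting enzyme family, also known as damage-induced neuronal endopeptidase. Gadd45a and Gadd45g encode small stress sensors of growth arrest and DNA damage.

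After Ezh2-Y726D overexpression, 1 of the 8 genes rose (Basp1), 2 fell (Ecel1 and Tubb6) and 5 did not pass the test (Gap43, Stmn4, Sprr1a, Gadd45a and Gadd45g). P values came from the quasi-likelihood framework of edgeR, adjusted after Benjamini and Hochberg over the 18138 genes tested, and genes with an adjusted P below 0.05 were called. All 8 genes passed the filter on low counts. Of all genes tested, 27.5% were called, 13.9% as higher and 13.6% as lower, so the share called among the 8 was not far from the background. The groups did not overlap for 1 gene higher and 2 lower, as for 38.6% of all genes in either direction. The median log2 fold change of the 8 genes was 0.048, relative to 0.0019 over all genes tested. At the fold change over 1.5 that the study also required of a differentially expressed gene, only Tubb6 was left, among 2.52% of genes higher and 5.5% lower. With the rRNA gene CT010467.1 left out of the total, the 8 genes together took 0.0512%, 0.0514% and 0.0535% of a GFP library. Their share was 0.0515%, 0.0506% and 0.0516% of an Ezh2-Y726D library, and the groups overlapped.

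**Figure D1:**
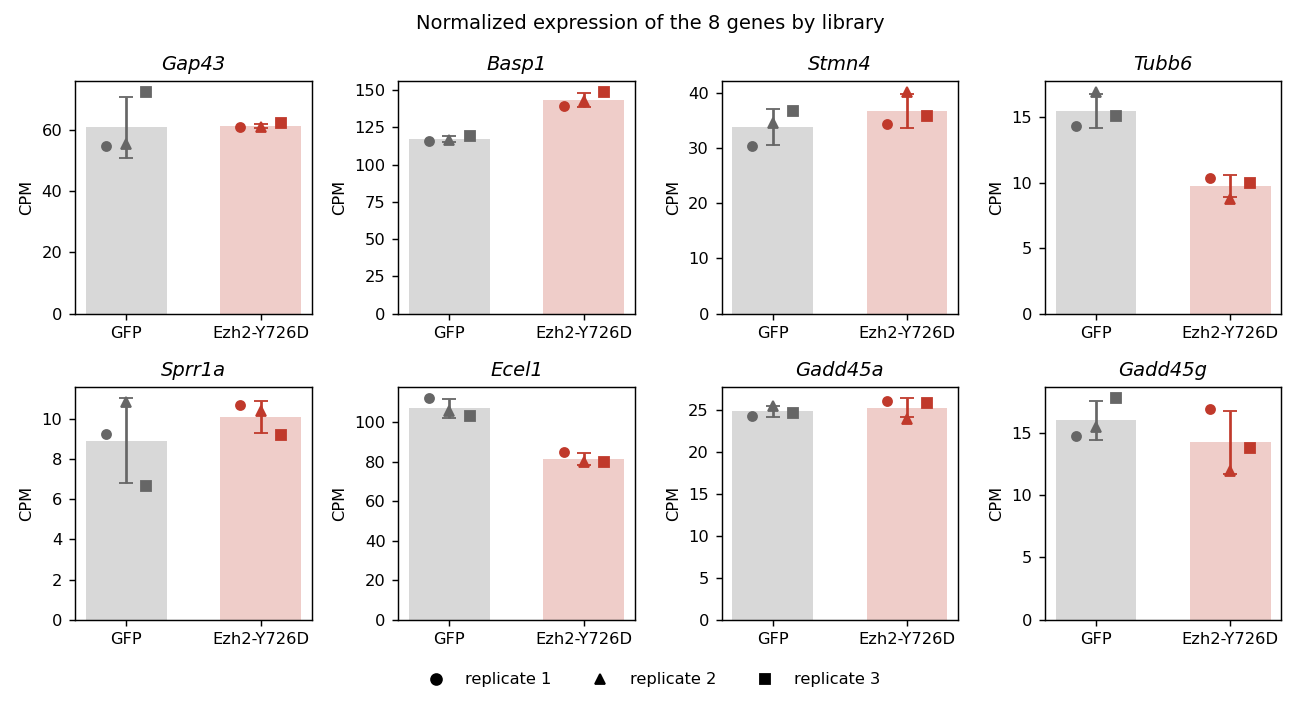
CPM (counts scaled to the library size after TMM, which trims extreme genes) of each of the 8 genes in the GFP and Ezh2-Y726D libraries, with bars at the group mean, error bars of 1 SD (n = 3 libraries) and a marker for each replicate. Basp1 lay higher and Ecel1 and Tubb6 lower in every Ezh2-Y726D library than in any GFP library, and the groups overlapped for the other 5 genes.

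The libraries held 9333244 to 23782520 counts, and 4460732 to 22024582 without CT010467.1, a gene annotated as rRNA. This gene took 50.9% and 52.2% of the counts of GFP replicates 2 and 3, and 2.55% to 16.1% of the others. These GFP libraries were the shallowest, and in them the 8 genes had 2953 and 2385 counts in all, against 7728 to 11363 elsewhere. Ezh2 was 2.76-fold higher in the Ezh2-Y726D libraries, in which vector and endogenous transcripts were not separated. RGC markers were detected, but they did not dominate the sorted cells. The 12 markers summed to 151 CPM per kb of exon in GFP, compared with 2909 for 8 Müller glia markers, of which Apoe made up 1449, and 1101 for 8 rod markers. The RGC markers summed to 485 to 499 CPM in GFP and to 494 to 529 CPM in Ezh2-Y726D. Of these 12, 3 rose, with log2 fold changes of 0.52 for Ebf3, 0.41 for Pou4f1 and 0.13 for Thy1, the gene of the sorted antigen. None fell by the test, and 7 of the 12 had a negative log2 fold change, with a median of -0.073 over the 12. The 9 not called included Rbpms, a pan-RGC marker, with a log2 fold change of -0.20 (edgeR adjusted P = 0.0987). In bulk libraries, fewer cells of a type and less RNA per cell cannot be told apart.

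Sequence before the transcription start is shown for Sprr1a and Basp1, the first because its window held 2 AP-1 motifs, the DNA element bound by Jun and Atf family dimers, and the second because Basp1 was the gene that rose. Windows on the chromosome of Tubb6 were left out before matching, so Tubb6 was not searched. The remaining RefSeq windows on GRCm38.p6 matched 5 of the 8 genes. These were Sprr1a, Basp1, Gadd45a, Gadd45g and Ecel1. Only bases before the start in both RefSeq and GENCODE are printed, 5′ to 3′ on the minus strand, from chr3:92485896-92486131 for Sprr1a and chr15:25413765-25414014 for Basp1. Capitals mark AP-1 motifs (TGANTCA) in Sprr1a and GC boxes (GGGCGG) in Basp1.
Sprr1a: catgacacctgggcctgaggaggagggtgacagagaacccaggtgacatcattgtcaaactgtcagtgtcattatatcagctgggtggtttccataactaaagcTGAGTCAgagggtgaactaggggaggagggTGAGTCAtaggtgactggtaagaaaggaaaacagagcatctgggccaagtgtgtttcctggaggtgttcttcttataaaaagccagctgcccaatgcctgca
Basp1: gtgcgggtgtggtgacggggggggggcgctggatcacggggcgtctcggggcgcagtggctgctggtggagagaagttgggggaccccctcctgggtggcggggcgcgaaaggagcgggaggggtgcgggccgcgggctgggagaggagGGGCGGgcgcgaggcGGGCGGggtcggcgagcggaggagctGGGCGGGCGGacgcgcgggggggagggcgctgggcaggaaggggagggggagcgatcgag

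In Sprr1a, the AP-1 motifs began 146 and 116 bases before the RefSeq start. Both strands were searched in windows of 250 bases. Of 32851 such windows, without the chromosome of Tubb6, 6.75% held TGANTCA at least once and 0.338% held it at 2 or more places. The windows of Basp1, Gadd45a, Gadd45g and Ecel1 held no TGANTCA. None of the 5 matched windows held the ATF/CREB motif TGACGTCA, which 1.55% of all windows held. The windows searched were set by the RefSeq start. Of their 250 bases, only 85 in Ecel1, 200 in Gadd45a and 236 in Sprr1a also lay before the GENCODE start. Basp1 had 4 GC boxes, of which the last 2 overlap, and 32.7% of all windows held at least 1. Gadd45a had 1 GC box and the other 3 had none. The G and C content was 78.8% in the Basp1 window and 49.6% in the Sprr1a window, around a median of 52.4% over all windows. Basp1 had 30 CpG dinucleotides and Sprr1a 0. A match of letters is a description and does not show that a factor binds there.

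Levels differed widely between the 8 genes. Per kb of exon, Basp1 was highest in the GFP libraries at 58.4 ± 0.939 CPM per kb (SD, n = 3), followed by Gap43 at 40.0 ± 6.52, Ecel1 at 30.5 ± 1.32 and Stmn4 at 17.6 ± 1.69 CPM per kb. Gadd45a (14.1 ± 0.355), Gadd45g (13.6 ± 1.34) and Sprr1a (11.04 ± 2.63 CPM per kb) came next, and these neighbours did not differ beyond their spread. Tubb6 was lowest at 6.34 ± 0.538 CPM per kb. In the Ezh2-Y726D libraries the order differed only in that Sprr1a (12.5 ± 0.981) was above Gadd45g (12.1 ± 2.14 CPM per kb), within their spread. Averaged over the 6 libraries, Basp1 was at the 98.5th percentile of the level per kb of all genes tested, Gap43 at the 96.7th and Sprr1a at the 82.1st. Tubb6 was at the 59.2nd.

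Gap43 and Basp1, the membrane proteins of the growth cone, were compared first. Gap43 (ENSMUSG00000047261, chromosome 16, 42248442 to 42340651) gave 54.8, 55.5 and 72.3 CPM with GFP, against 61.0, 61.0 and 62.2 CPM with Ezh2-Y726D. The Ezh2-Y726D libraries lay within the range of GFP, which was set by GFP replicate 3. In this library Gap43 had 436 counts, and the 95% exact Poisson interval, which covers counting error only, was 65.7 to 79.4 CPM. The fold change of Gap43 was 1.04 (95% interval 0.947 to 1.14, edgeR adjusted P = 0.593). Without GFP replicate 3, the log2 fold change was 0.16 (edgeR adjusted P = 0.0294), and without GFP replicate 1 it was -0.041 (edgeR adjusted P = 0.766), so that the direction and the call of Gap43 each depended on a single library.

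Basp1 (ENSMUSG00000045763, chromosome 15, 25363277 to 25413764) gave 116, 117 and 119 CPM with GFP, against 139, 143 and 149 CPM with Ezh2-Y726D. All Ezh2-Y726D libraries were above all GFP libraries, as were those of 19.7% of the genes tested. Basp1 rose 1.23-fold (log2 fold change 0.30, standard error 0.041, edgeR adjusted P = 2.00e-06). Within each library, the ratio of Gap43 to Basp1 counts, which does not depend on how libraries are scaled, was 0.473, 0.476 and 0.606 in GFP and 0.438, 0.427 and 0.418 in Ezh2-Y726D. These ratios did not overlap, and their 2-sided exact permutation P was 0.1, the smallest that 3 libraries against 3 allow, for a pair chosen with the levels known. Marcks and Marcksl1, relatives of this group that also bind membranes and actin, had log2 fold changes of 0.053 (edgeR adjusted P = 0.455) and -0.082 (edgeR adjusted P = 0.291). As a share of the summed level per kb of Gap43, Basp1, Marcks and Marcksl1, Basp1 went from 32.4% ± 1.35 to 36.9% ± 0.909 (SD, n = 3).

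Of the microtubule genes, Tubb6 fell and Stmn4 was not called. Stmn4 (ENSMUSG00000022044, chromosome 14, 66344296 to 66361680) gave 30.3, 34.4 and 36.7 CPM with GFP, against 34.3, 40.1 and 35.7 CPM with Ezh2-Y726D. The groups overlapped, with a GFP library lowest and an Ezh2-Y726D library highest. Its fold change was 1.12 (95% interval 1.01 to 1.24), which did not pass adjustment over all genes (edgeR adjusted P = 0.0952). Stmn4 passed without GFP replicate 3 (edgeR adjusted P = 0.0420) and without Ezh2-Y726D replicate 1 (edgeR adjusted P = 0.0306). Its log2 fold change, 0.16 with all libraries, was 0.043 without GFP replicate 1 (edgeR adjusted P = 0.796) and 0.097 without Ezh2-Y726D replicate 2 (edgeR adjusted P = 0.424). Among the other stathmins, Stmn3 rose from 70.2 ± 1.89 to 83.9 ± 2.95 CPM (SD, n = 3), a log2 fold change of 0.25 (edgeR adjusted P = 0.000119), and Stmn1 and Stmn2 were not called, at 0.10 and 0.082. Stmn4 made up 14.5% ± 1.36 of the summed stathmin level per kb in GFP and 13.8% ± 0.695 in Ezh2-Y726D (SD, n = 3).

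Tubb6 (ENSMUSG00000001473) gave 14.3, 16.9 and 15.1 CPM with GFP, against 10.4, 8.77 and 9.998 CPM with Ezh2-Y726D. Every Ezh2-Y726D library was below every GFP library, as for 18.9% of the genes tested. Tubb6 fell to 0.647 of its GFP level (95% interval 0.565 to 0.743, edgeR adjusted P = 8.16e-06), which was the largest change among the 8 genes. The other beta-tubulins changed in both directions. Tubb4a, Tubb2a and Tubb5 were called, with log2 fold changes of 0.50, 0.23 and -0.23. Tubb2b (0.15), Tubb3 (-0.13) and Tubb4b (-0.0031) were not. Tubb3 is the beta-tubulin widely used as a neuronal marker. Tubb6 was a small part of the summed beta-tubulin level per kb, and its share went from 1.64% ± 0.137 to 1.02% ± 0.0974 (SD, n = 3), with shares of 1.505%, 1.78% and 1.65% in GFP and 1.08%, 0.904% and 1.06% in Ezh2-Y726D. These shares do not depend on the scaling between libraries. Beta-tubulin genes resemble each other in sequence, and how reads matching several genes were counted is not given in the sources used here, so the counts of this family are uncertain.

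**Figure D2:**
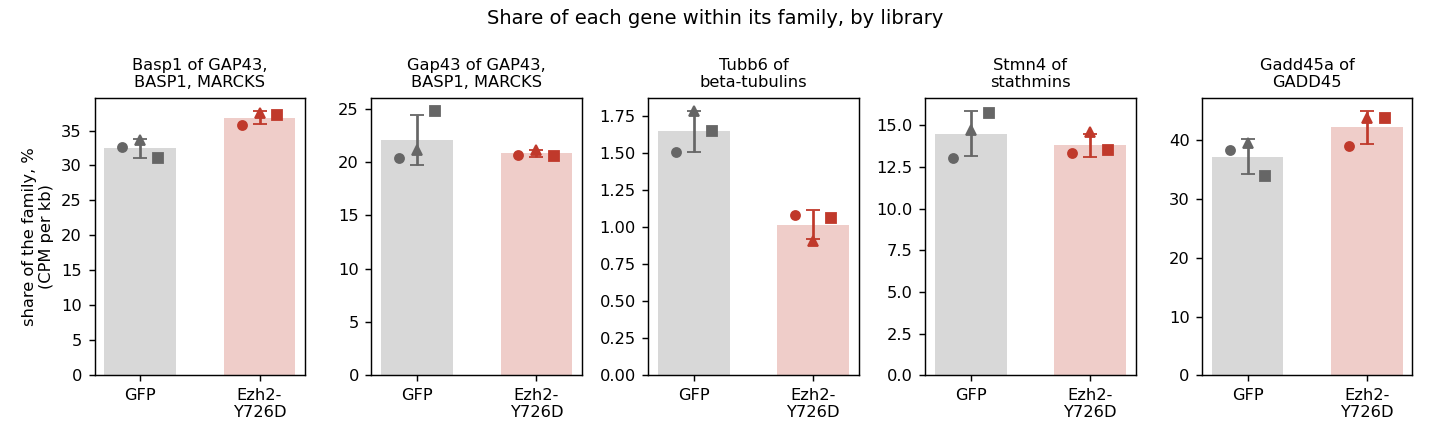
Share of Basp1, Gap43, Tubb6, Stmn4 and Gadd45a in the summed level per kb of its gene family, in percent, for each library (markers as replicates 1 to 3; bars, mean; error bars, 1 SD, n = 3). The share of Tubb6 lay between 1.505% and 1.78% in GFP and between 0.904% and 1.08% in Ezh2-Y726D, and the share of Stmn4 overlapped between the groups.

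Of the injury-induced genes, Ecel1 fell and Sprr1a was not called. Sprr1a (ENSMUSG00000050359, chromosome 3, 92483952 to 92485895), whose upstream AP-1 motifs are shown above, gave 9.23, 10.8 and 6.63 CPM with GFP, against 10.7, 10.4 and 9.18 CPM with Ezh2-Y726D. The groups overlapped, and the lowest library, GFP replicate 3, rested on 40 counts (95% exact Poisson interval 4.74 to 9.03 CPM). The fold change of Sprr1a was 1.10 (95% interval 0.934 to 1.30, edgeR adjusted P = 0.427). None of the 17 alternative settings gave Sprr1a an adjusted P under 0.05. The lowest and highest log2 fold changes with 1 library left out were 0.056 and 0.22. Other members of the SPRR family were not analysed here.

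Ecel1 (ENSMUSG00000026247, chromosome 1, 87147655 to 87156521) gave 112, 106 and 103 CPM with GFP, against 85.0, 79.7 and 79.8 CPM with Ezh2-Y726D. The groups did not overlap, and the 3 Ezh2-Y726D libraries lay close together. Ecel1 fell to 0.756 of its GFP level (95% interval 0.708 to 0.807, log2 fold change -0.40, edgeR adjusted P = 6.65e-08). Its relatives were Ece1, an endothelin-converting enzyme, with a log2 fold change of -0.097 (edgeR adjusted P = 0.175), and Ece2 with 0.67 (edgeR adjusted P = 0.0116). Ece2 was low, at 1.94 and 3.22 CPM, and shares 57.5% of its exonic bases with Gm49333, which makes its count uncertain.

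Ratios between the genes that were called are given as a description without scaling between libraries. Ecel1 counts per Basp1 count were 0.967, 0.906 and 0.863 in GFP and 0.610, 0.559 and 0.538 in Ezh2-Y726D. The ratio of Tubb6 to Basp1 was 0.124, 0.145 and 0.126 in GFP and 0.0745, 0.0614 and 0.0673 in Ezh2-Y726D. Since Basp1 was higher and Ecel1 and Tubb6 were lower in every Ezh2-Y726D library, these ratios to Basp1 could not overlap, and the 2-sided exact permutation P of 0.1 that each gave was fixed by that choice and supports nothing further. The ratio of Tubb6 to Ecel1 was 0.128, 0.160 and 0.147 in GFP and 0.122, 0.110 and 0.125 in Ezh2-Y726D, without overlap. Its exact permutation P was 0.1, the smallest possible, for a pair chosen with the fold changes of both genes known. Among genes that were not called, the ratios of Gadd45g to Gadd45a and of Sprr1a to Gap43 overlapped between the groups (exact permutation P of 0.3 and 0.8). Scaling matters for the direction taken alone. With library totals in place of TMM, which put the median over all genes at 0.49 on the log2 scale, the log2 fold changes of Basp1, Ecel1 and Tubb6 were 0.80, 0.10 and -0.14, and none was called. Once CT010467.1 was removed from these totals they were 0.28, -0.42 and -0.65, and all 3 were called.

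The stress genes Gadd45a and Gadd45g were not called. Gadd45a (ENSMUSG00000036390, chromosome 6, 67035096 to 67037457) gave 24.3, 25.5 and 24.7 CPM with GFP, against 26.0, 24.01 and 25.9 CPM with Ezh2-Y726D. All 6 libraries lay within a narrow range, and the fold change was 1.03 (95% interval 0.935 to 1.13, edgeR adjusted P = 0.731). Gadd45a shares 19.1% of its exonic bases with E230016M11Rik on the opposite strand. This transcript was at 9.43 ± 0.269 CPM in GFP and 10.3 ± 1.02 CPM in Ezh2-Y726D (SD, n = 3), and whether counting used the strand is not given in the sources used here.

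Gadd45g (ENSMUSG00000021453, chromosome 13, 51846678 to 51848468) gave 14.7, 15.5 and 17.7 CPM with GFP, against 16.9, 11.96 and 13.8 CPM with Ezh2-Y726D. The libraries of the groups were mixed, and the fold change was 0.926 (95% interval 0.798 to 1.07, edgeR adjusted P = 0.497). The third gene of the family, Gadd45b, fell from 16.4 ± 2.79 to 12.3 ± 1.39 CPM (SD, n = 3), a log2 fold change of -0.37 (edgeR adjusted P = 0.0055). Whether Gadd45b differed from Gadd45a or Gadd45g in its response was not tested.

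**Figure D3:**
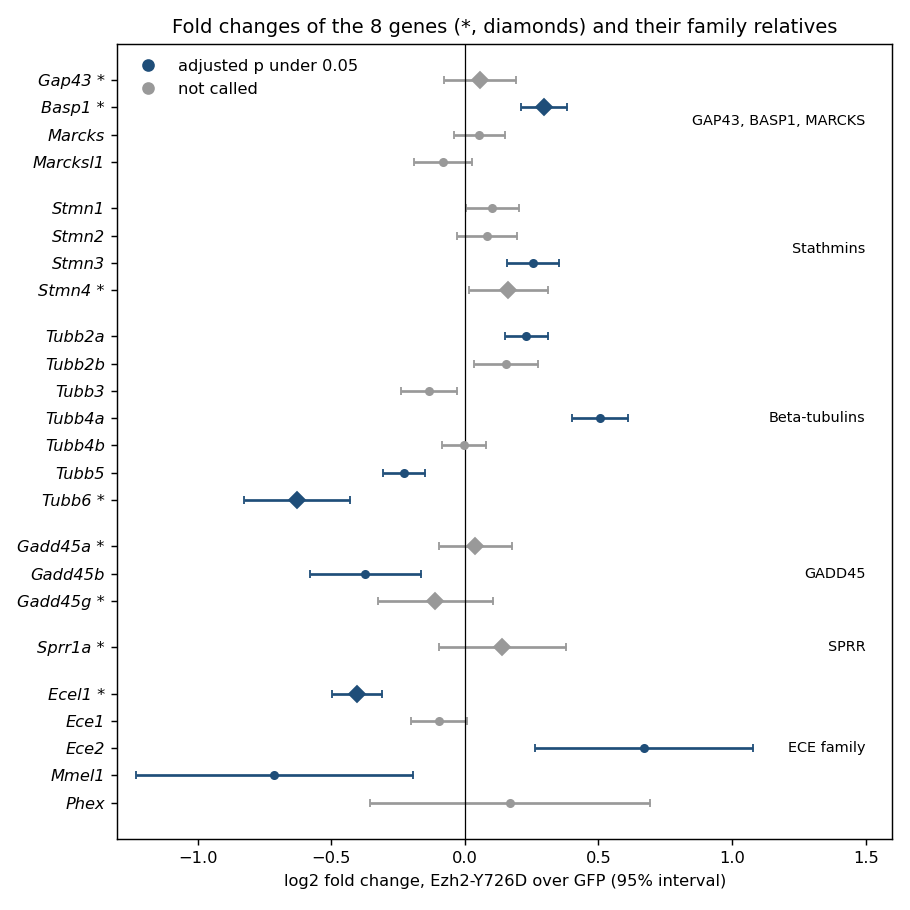
Log2 fold change of Ezh2-Y726D over GFP with its 95% interval for the 8 genes (diamonds, starred names) and their tested relatives, grouped by family (dark, adjusted P under 0.05; grey, not called). Each family with several tested genes holds genes that were called and genes that were not, and the lowest of the 8 genes is Tubb6 at -0.63.

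Of the 29 relatives listed for these families, 18 were in the table and 16 were tested, of which 4 rose, 3 fell and 9 were not called (median log2 fold change 0.068), beside 27.5% called of all genes tested. The relatives that rose were Ece2, Tubb4a, Stmn3 and Tubb2a, and those that fell were Tubb5, Gadd45b and Mmel1, while with library totals none of the 16 was called. Mmel1 was at 1.87 ± 0.656 CPM in GFP and 1.27 ± 0.109 CPM in Ezh2-Y726D (SD, n = 3).

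A wider list of 43 genes of the growth cone and its cytoskeleton was tested in the same fit, and 17 rose, 8 fell and 18 were not called, beside 13.9% of all genes tested that were higher and 13.6% that were lower. Its median log2 fold change was 0.073, relative to 0.0019 over all genes. The largest rises were those of Plppr1, a phospholipid phosphatase-related membrane protein (0.57), Dcx, which binds microtubules of migrating neurons (0.55), Cdk5r1, the activator of Cdk5 (0.51), and Dclk1, a doublecortin-like kinase (0.35). The largest falls were those of Tuba1c, an alpha-tubulin (-0.84), Tmsb4x, which sequesters actin monomers (-0.61), Vasp, which promotes actin filament elongation (-0.51), and Pfn1, a profilin (-0.47). Tmsb4x and Pfn1 are also abundant in leukocytes.

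Of 40 other regeneration-associated genes, 36 were tested. In this list, 7 rose, 15 fell and 14 were not called, with a median log2 fold change of -0.082. Over all genes tested the median was 0.0019, and 13.9% were higher and 13.6% lower. The largest rises were those of the neuropeptides Npy (1.21) and Gal (0.94), the growth factor Fgf2 (0.25) and the transcription factor Cebpd (0.24). Genes that fell included Thbs1, thrombospondin-1 (-1.72), Spp1, osteopontin (-1.49), and the lectin Lgals3 (-1.12). Spp1 and Lgals3 are also expressed by activated phagocytes. Other genes overlap Fgf2, Cebpd and Spp1 over 13.2% to 18.8% of their exonic bases.

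**Figure D4:**
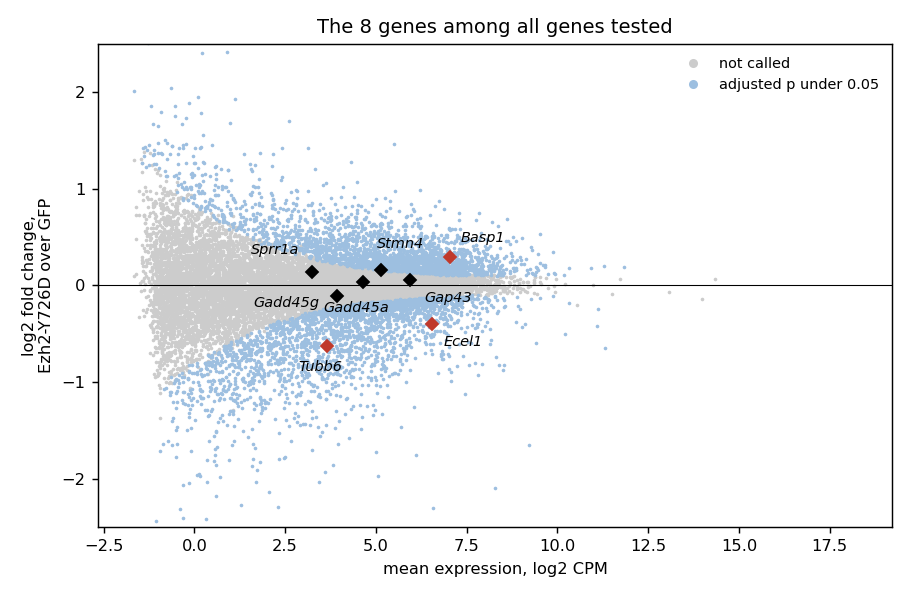
Log2 fold change of Ezh2-Y726D over GFP against mean log2 CPM for the 18138 genes tested (grey, not called; blue, adjusted P under 0.05), with the 8 genes as diamonds (red, called; black, not called). The axis leaves out 20 genes beyond 2.5 in either direction. Basp1 lies above, Ecel1 and Tubb6 below, and the other 5 genes near 0.

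Marker sums of several other cell types moved with the groups, while those of astrocytes, endothelial cells and surface epithelium overlapped. The sum of 12 microglia and macrophage markers was 1410 to 1570 CPM in GFP and 653 to 768 CPM in Ezh2-Y726D, where 9 of the 12 fell and 1 rose. All 8 T cell markers fell, from 130 to 132 CPM in GFP to 74.6 to 81.8 CPM. The 8 cone markers fell from 450 to 471 CPM to 288 to 303 CPM, and the 9 bipolar cell markers went from 1078 to 1092 CPM to 874 to 900 CPM, where 8 fell and 1 rose. The 6 pericyte markers summed to 213 to 231 CPM in GFP and 166 to 179 CPM in Ezh2-Y726D, and 5 of them fell. The 8 Müller glia markers summed to 8787 to 9241 CPM and 7438 to 7655 CPM, but 3 fell, 1 rose and 4 were not called. Most of that difference came from Apoe, which macrophages also express and which went from 3099 to 1983 CPM. Amacrine markers went the other way, from 1099 to 1187 CPM to 1697 to 1756 CPM, and all 9 that were tested rose. The 8 rod markers summed to 5659 to 5828 CPM in GFP and 6204 to 6404 CPM in Ezh2-Y726D, where 3 rose and none fell. The part of these cell types in the changes of Basp1, Ecel1 and Tubb6, and in those of the wider lists, was not tested. When libraries were scaled to the summed RGC markers, the log2 fold changes of these genes were 0.24, -0.45 and -0.69, and all 3 were called, while 1607 genes were higher and 2993 lower against 2525 and 2463 with TMM. The log2 fold change of Gap43 was then -0.0065 and that of Stmn4 0.099, neither of them called.

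The profile of each gene over the 6 libraries was compared by Pearson's r of log2(CPM + 1) with 79 genes of the growth cone and regeneration lists. The r values are descriptive, and genes that moved in the same direction share the difference between the groups. Basp1 was closest to Map2, a dendritic microtubule protein (r = 0.991), and Gpm6a, a neuronal membrane glycoprotein (r = 0.978). Ecel1 was closest to Thbs1 (0.971) and Actb (0.970), and Tubb6 to Sox11, a transcription factor of the regenerative program (0.983), and Myc (0.977). For the 5 genes not called, the highest r was lower than for these 3. Gap43 was closest to Lin28a (0.915), which had only 1.55 and 1.30 CPM, and Chl1 (0.766), and Sprr1a to Tuba1b (0.822) and Plppr1 (0.758). Stmn4 was closest to Map1b (0.802) and Cap2 (0.739), Gadd45g to Atf3 (0.769) and Lif (0.722), and Gadd45a to Socs3 (0.757) and Ncam1 (0.723). Among the 8 genes, Basp1 and Ecel1 had an r of -0.987, Ecel1 and Tubb6 one of 0.934, and Gap43 and Sprr1a one of -0.775.

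**Figure D5:**
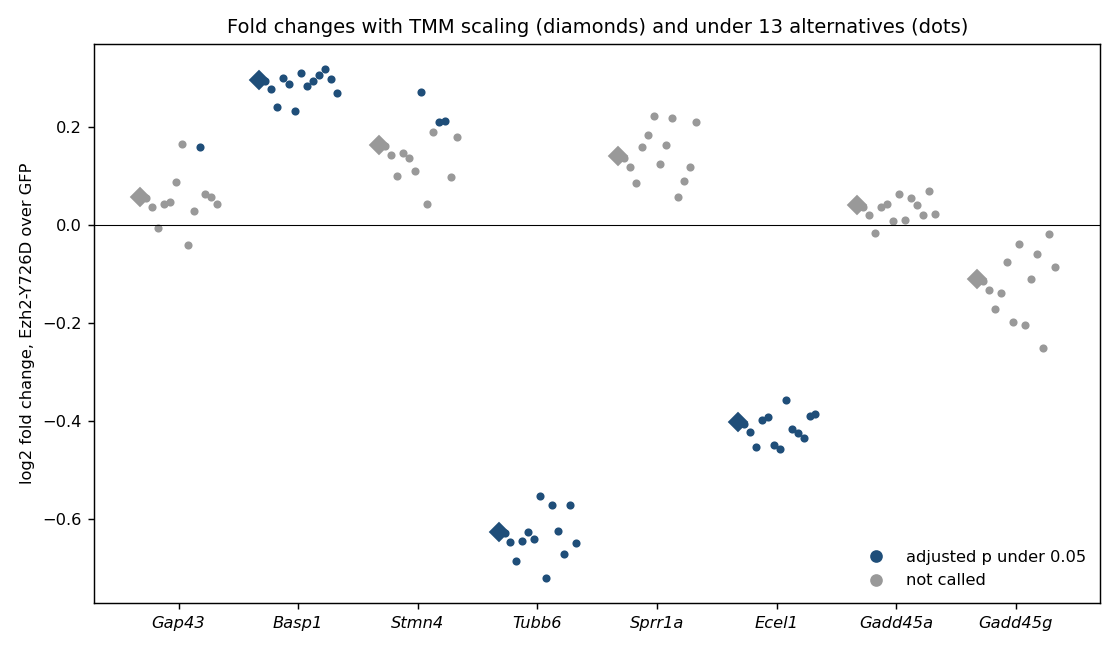
Log2 fold change of each of the 8 genes with TMM scaling and all libraries (diamonds) and under 13 alternative settings of scaling, test, depth and libraries (dots; dark, adjusted P under 0.05). Basp1 stays above 0 and Ecel1 and Tubb6 below 0 in all of those plotted, which do not include library totals, and the values of Gap43 fall on both sides of 0.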

How the data were processed

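RNA-Seq libraries were made from sorted retinal cells with a stranded total RNA kit. For each of the 6 libraries the authors deposited raw read counts by Ensembl gene. The submitters' processing notes name STAR 2.7.0d and GRCm38. The counting tool, the annotation, the strand setting and filters are not given in the sources used here. Symbols came from a gene name table (32325 of 32371 identifiers), positions and exon lengths from GENCODE vM21 on GRCm38, and upstream windows from RefSeq on GRCm38.p6.

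Counts were scaled with TMM, filtered with filterByExpr (10 counts, total of 15) and tested with edgeR 4.0.16 in R 4.3.3 (glmQLFit and glmQLFTest, group only), with Benjamini-Hochberg adjustment over 18138 genes. Standard errors are log2 fold changes over the root of F, and 95% intervals use the moderated degrees of freedom. The procedure was tested on simulated data. Library pairs within a group differed by a chi-square of 1.49 to 3.03 per degree of freedom, so none was a copy. Alternatives were RLE, library totals with and without CT010467.1, scaling to RGC markers, DESeq2 1.42.0, 2 other filters, the replicate block, a fold change over 1.5, thinned counts and leaving out libraries.

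The genes and lists were chosen with earlier results of these data known. Named are the 8 genes, Ezh2, up to 4 called genes with the highest and lowest log2 fold changes of each further list, relatives with a mean of at least 10 CPM, the 2 genes with the highest r for each of the 8, and Rbpms. Apoe, E230016M11Rik, Ebf3, Pou4f1 and Thy1 were added after their values were seen. A gene that this rule names is not reported here.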

Additional observations from a re-analysis of the deposited data

How the results depend on the processing

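Basp1, Ecel1 and Tubb6 kept their direction and their call in every alternative other than library totals and, for Basp1 and Ecel1, the fold change over 1.5. Leaving out 1 library at a time gave 1 to 3 higher and 2 lower among the 8 genes, with 1919 to 2314 genes higher and 1853 to 2288 lower overall. The same fits gave 3 to 5 higher and 2 to 4 lower relatives, 15 to 16 higher and 7 to 9 lower growth cone genes, and 6 to 7 higher and 13 to 15 lower other regeneration-associated genes. With library totals, 0 of the 8 genes were higher and 0 lower, as were 0 relatives and 0 growth cone genes in either direction, and 1 other regeneration-associated gene was higher and 1 lower. This scaling reversed Gadd45g (0.37) and Ecel1 (0.10). Over all genes it called 46 higher and 19 lower, against 2525 and 2463 with TMM. With CT010467.1 left out of the totals, 2214 were higher and 2730 lower, with a median log2 fold change of -0.018 over all genes against 0.49. Scaling to RGC markers called 1607 higher and 2993 lower, and it reversed Gap43 (-0.0065) and Gadd45a (-0.017), which were not called. With 1 library left out, Gap43 ranged from -0.041 (without GFP replicate 1) to 0.16 (without GFP replicate 3). With a fold change over 1.5, 0 of the 8 genes were higher and 1 lower, 1 relative was higher and 1 lower, 0 growth cone genes were higher and 2 lower, and 2 other regeneration-associated genes were higher and 7 lower. Thinned counts called 1660 genes higher and 1666 lower in all, and left 1 lower relative and 4 higher other regeneration-associated genes, with fewer counts per gene, and DESeq2 called 4 of the latter higher. Without GFP replicates 2 and 3, a choice made after seeing the data, 2 of the 8 genes were higher, the second being Stmn4 (0.27), and 4 other regeneration-associated genes were higher. The lone GFP library is assumed there to vary like the Ezh2-Y726D libraries.

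The replicate numbers were also used as a block. Same-numbered libraries had correlations of 0.176, 0.0631 and 0.0456 of their deviations from the group means. Those of different-numbered libraries were lower, from -0.0989 to 0.0386. Whether the numbers mark a shared batch is not stated in the labels, and the main fit did not use them. With the replicate block, 1 of the 8 genes was higher and 2 were lower, and 2675 genes were higher and 2547 lower overall. Sprr1a had 40 counts in GFP replicate 3, the fewest of the 8 genes in any library.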
